A study of Mus musculus with 61 samples.

Results

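DNA replication genes were followed in mouse pancreatic ductal organoid cells after 8 days of expression of Ngn3, Pdx1 and MafA. The set was a given list of 47 genes that load and activate the replicative helicase, copy the strands, supply deoxynucleotides or restore chromatin behind the fork, together with E2f1 and E2f2. All 47 were found in the count table of 46078 genes, lie on 16 chromosomes, and passed the filter on low counts that left 24004 genes for testing.

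Organoids grown from pancreatic ducts of adult C57BL/6 mice were infected with separate doxycycline-inducible lentiviral vectors, in which GFP marked Ngn3, LSSOrange marked Pdx1 and tdTomato marked MafA. Each library came from a pool of 50 cells sorted by colour, so a sample was defined by its reporters and not by measured protein. Cells without Ngn3 carried Pdx1, MafA or the pair, and cells with Ngn3 carried it beside Pdx1, beside MafA or beside the pair (the 3 factors). The 6 combinations were sorted both from WT cultures, which received wild-type Ngn3, and from 6SA cultures, which received 6SA Ngn3, a phospho-mutant whose serine targets of cyclin-dependent kinases are alanines. This gave 12 conditions. Uninfected cells and cells with Ngn3 alone were not analysed here, so every group without Ngn3 still carried Pdx1, MafA or both and had the same doxycycline treatment. After filtering and summing of technical repeats there were 32 samples, 17 with Ngn3 and 15 without, with 2 or 3 biological replicates per condition. Replicates 1 and 2 were infected at passage 2 and replicate 3 at passage 5.

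Before S phase, the origin recognition complex with Cdc6 and Cdt1 loads the Mcm2 to Mcm7 ring onto DNA, and geminin (Gmnn) then blocks Cdt1 so that origins are not licensed again. Cdc45, the GINS complex and Mcm10 turn the ring into a moving helicase. Polymerase alpha with primase starts each strand, the clamp loader Rfc places the sliding clamp Pcna, and polymerases delta and epsilon extend the strands. Many of these genes are transcribed under control of E2F factors, which the retinoblastoma protein holds in check until cells commit to divide. In the developing pancreas, Ngn3 acts in progenitors that leave the cell cycle as they become endocrine.

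Samples had between 2579583 and 19461008 gene counts, a depth at which 3 counts equal 0.136 to 1.01 CPM (counts per 1000000 of the TMM-scaled library, the unit used throughout). Neurog3 was at 7.87 to 329 CPM in samples sorted for Ngn3 and at 0 to 0.787 CPM in those sorted without it, and no sample with Ngn3 was as low as any without. The sum of 10 duct markers was 1563 to 17955 CPM with Ngn3 and 14542 to 59885 CPM without, and that of 10 endocrine markers was 517 to 13521 CPM against 1.32 to 8.30 CPM. Of the markers of other cell types, 3 of 10 acinar, 5 of 8 mesenchymal, 3 of 7 immune and 4 of 5 endothelial genes passed the filter. With Ngn3 their sums were 0.151 to 34.3, 0.203 to 296, 37.0 to 418 and 0 to 27.1 CPM, in that order. Without Ngn3 they were 0.504 to 17.1, 0.143 to 7.82, 408 to 991 and 0 to 2.24 CPM. Most of the immune sum was Cd14, with a median of 52.1 CPM with Ngn3 and 686 CPM without, and Ptprc, Lyz2, Adgre1 and Cd3e did not pass the filter. Of the duct markers 6 of 10 were lower with Ngn3 and of the endocrine markers 10 of 10 were higher, and their part in the changes below was not tested.

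Replication genes were lower in cells with Ngn3. Summed over the 47 genes, their level was 739 to 1802 CPM in the 17 samples with Ngn3 (median 917) and 1105 to 4096 CPM in the 15 without (median 1907). The ranges overlapped only through 2 samples with Ngn3 and Pdx1, replicate 2 of the WT cultures at 1802 CPM and replicate 2 of the 6SA cultures at 1600 CPM, and the other samples with Ngn3, at up to 1054 CPM, were below every sample without it. Mki67, a marker of dividing cells, was at 163 and 141 CPM in these 2 samples, against a median of 2.19 CPM over samples with Ngn3. It had no counts in the lowest sample without Ngn3, 6SA replicate 3 with MafA. That sample had the lowest TMM factor of all, 0.697. With plain library totals in place of TMM factors its sum was 771 CPM. This was below every sample with Ngn3, the lowest of which, WT replicate 3 with the 3 factors, was then at 807 CPM. The place of this sample above those with Ngn3 therefore depended on the scaling. Replicate 2 held the 4 highest sums without Ngn3, from 3335 to 4096 CPM, in cells with Pdx1 and with Pdx1 and MafA of both cultures. The labels place cells with and without Ngn3 in WT or 6SA cultures, but do not say that the same replicate number marks the same culture. In each of the 14 same-numbered pairs of a combination with and without Ngn3 the TMM-scaled sum was lower with Ngn3. It was at 0.221 to 0.831 times the level without it, and 25 to 47 of the 47 genes were lower within a pair. With plain library totals the MafA pair of 6SA replicate 3 went the other way, at 924 CPM with Ngn3 and 771 CPM without. Since each value comes from a pool of cells, fewer replicating cells and less transcript per cell cannot be told apart.

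**Figure D1:**
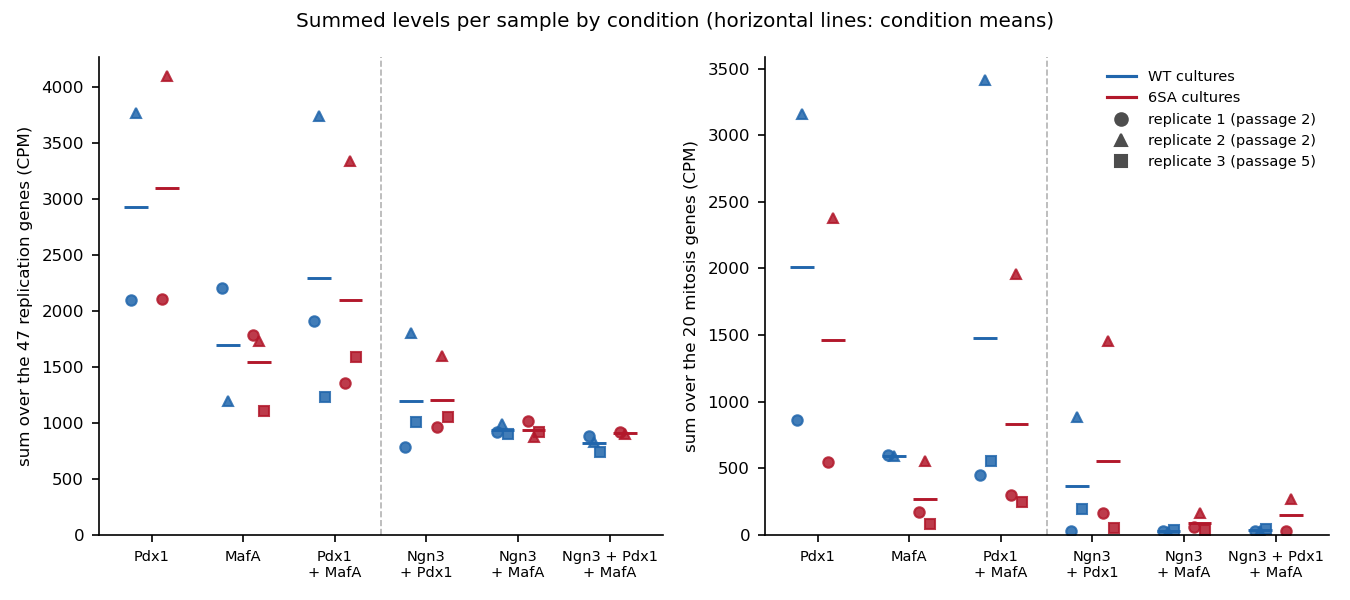
Summed levels in CPM of the 47 replication genes (left) and of 20 mitosis genes (right) in each sample, by combination of factors, with WT cultures in blue, 6SA cultures in red and horizontal lines at condition means. Samples with Ngn3 lie at 739 to 1802 CPM for the replication genes, and the highest 4 samples of all are replicate 2 samples without Ngn3.

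Gene by gene, 39 of the 47 were lower with Ngn3 over both cultures and the 3 combinations and 0 were higher (edgeR quasi-likelihood test, adjusted p under 0.05), where 10.5% of all genes tested were called lower and 11.1% higher. The median log2 fold change was -1.44, 2.71-fold lower, against 0.07 over all genes. Over all genes 2658 were higher and 2510 lower, and 3623 and 1676 with library totals in place of TMM factors, a scaling under which 29 of the 47 were still called. No member had all samples with Ngn3 below all samples without, a separation that 0.15% of all genes showed. Without replicate 2, 17 of the 47 were called, the median log2 fold change was -1.16 and 44 were negative. Leaving out any single sample left 33 to 40 called.

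**Figure D2:**
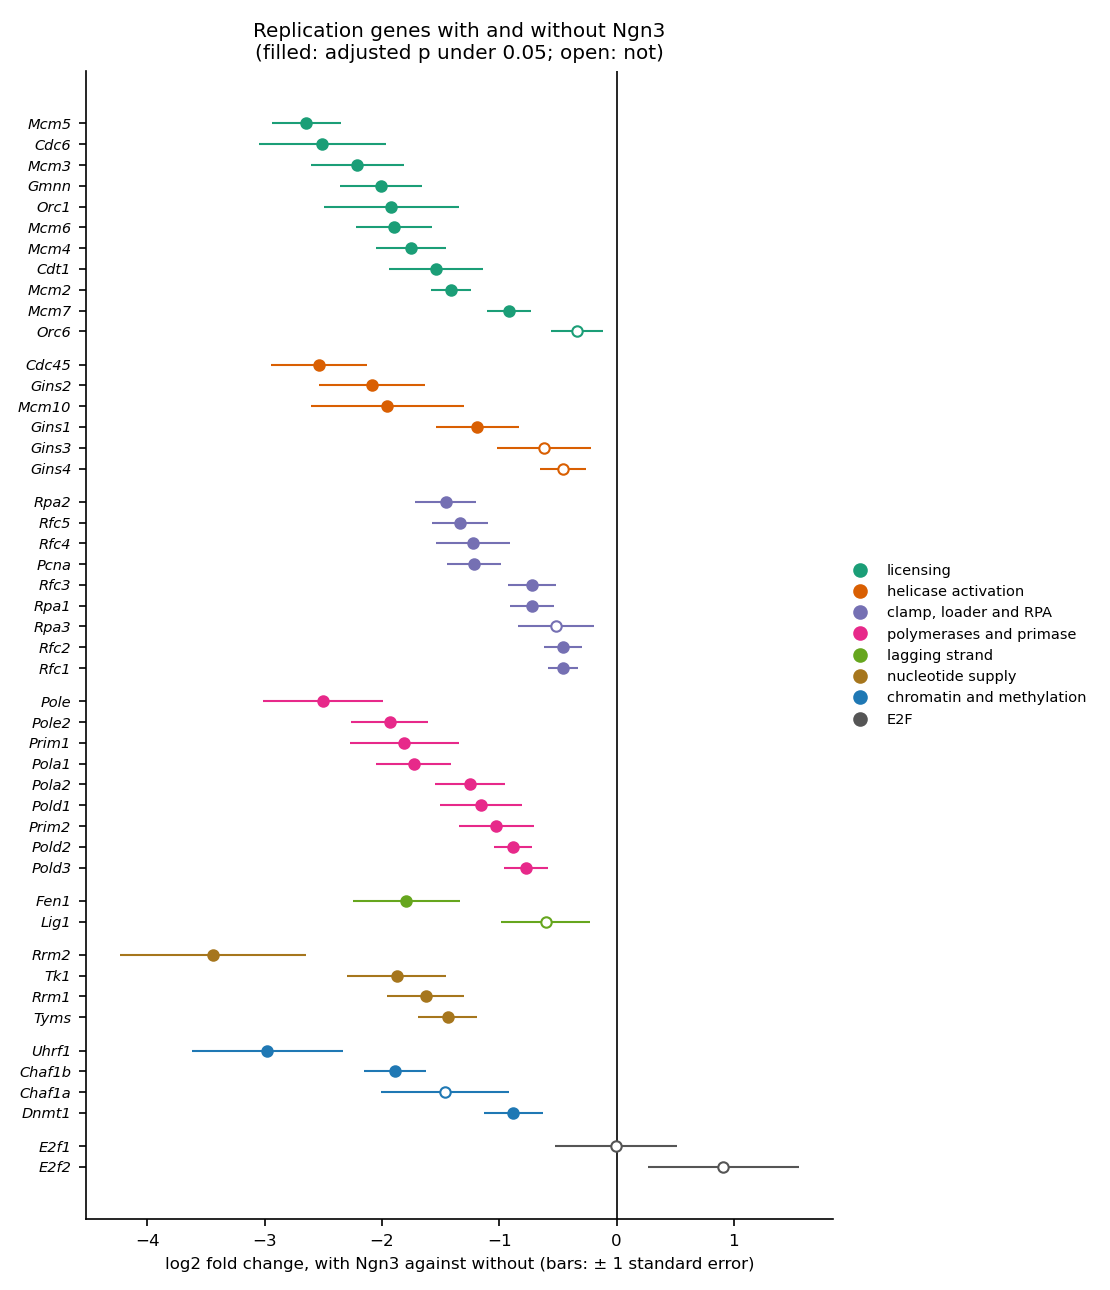
Log2 fold changes of the 47 genes with Ngn3 against without, over both cultures and the 3 combinations, grouped and coloured by role, with bars of 1 standard error. Filled points passed the test. The 39 filled points are all negative, and E2f2, at 0.91, is the single gene above 0.

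Among the 11 genes of origin licensing, 10 were lower and the median log2 fold change was -1.90. Mcm5, a subunit of the helicase ring with the lowest adjusted p of the list, was at 3.21 to 57.0 CPM with Ngn3 (median 7.56) and at 12.7 to 123 CPM without (median 58.9). Its level with Ngn3 and MafA, 3.21 to 12.4 CPM, and with the 3 factors, 3.66 to 9.90 CPM, was below that of every sample without Ngn3, while the range with Ngn3 and Pdx1, 11.3 to 57.0 CPM, overlapped it. The log2 fold change was -2.64 (standard error 0.30, edgeR adjusted p = 1.6e-07), or 6.25-fold lower, and Mcm5 was lower in 14 of 14 same-numbered pairs. The other ring subunits fell by 1.41 on the log2 scale for Mcm2, 2.21 for Mcm3, 1.75 for Mcm4, 1.90 for Mcm6 and 0.92 for Mcm7. Of the loading factors, Cdc6 fell by 2.51, Cdt1 by 1.54 and Orc1, the ATPase of the origin recognition complex, by 1.92. The Cdt1 inhibitor Gmnn fell by 2.01. Orc6, another subunit of the origin recognition complex, was the exception at a log2 fold change of -0.34 (edgeR adjusted p = 0.35). Its mean was 60.3 ± 19.3 CPM with Ngn3 (SD, n = 17) and 78.3 ± 36.1 CPM without (SD, n = 15). Its exons overlap those of Vps35, which was at a median of 201 CPM with Ngn3 and 238 CPM without. Those of Mcm7 overlap Cops6, at medians of 165 and 180 CPM, among other genes. How reads in overlapping genes were counted was not tested.

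Upstream of Mcm5, Mcm6 and Pola1 stand letters by which E2F sites are usually recognised, and these stretches are printed here because E2F control is a well known feature of replication genes. Stretches of 70 bases upstream of the transcription start were taken from RefSeq (GRCm38.p6), with E2F spellings in capitals. Positions count back from the first transcribed base in RefSeq, and all 3 stretches lie outside the gene as GENCODE annotates it.
Mcm5: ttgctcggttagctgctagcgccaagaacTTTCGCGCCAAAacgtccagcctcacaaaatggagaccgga
Mcm6: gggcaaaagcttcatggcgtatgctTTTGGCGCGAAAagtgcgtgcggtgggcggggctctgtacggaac
Pola1: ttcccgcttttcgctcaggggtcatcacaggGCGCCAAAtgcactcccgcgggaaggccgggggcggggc
The Mcm5 stretch is chr8:75109327-75109396 on the plus strand and runs from position -182 to -113. That of Mcm6 is chr1:128359771-128359840 on the minus strand, from -135 to -66. That of Pola1 is chrX:93632255-93632324 on the minus strand, from -169 to -100. In Mcm5 and Mcm6 a pair of spellings on opposite strands overlap.

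The 250 bases upstream were available for 39 of the 47 genes. Any of the spellings TTTGGCGC, TTTCCCGC, TTTGCCGC and TTTCGCGC, on either strand, stood in 10 of the 39, Mcm5, Mcm6, Mcm7, Orc1, Cdc6, Gins3, Rfc3, Pola1, Uhrf1 and Dnmt1, and in 2.16% of 27025 genes with such a window. In the 7 of these other than Mcm5, Mcm6 and Pola1 the spelling lies inside the gene as GENCODE annotates it, since that annotation starts further upstream than RefSeq. CCAAT stood in 25 of the 39 (37.5% of genes), GGGCGG in 29 (35.4%) and TTTGAA, the core of the element bound by repressor complexes of quiescent cells, in 7 (18.3%), each on either strand. The median log2 fold change with Ngn3 was -1.81 for the 10 genes with an E2F spelling and -1.41 for the 29 without, and the 2 ranges overlapped, from -2.98 to -0.62 and from -3.44 to 0.91. These are matches of letters in a window and not measured sites.

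Of the 6 genes of helicase activation, 4 were lower, with a median log2 fold change of -1.57. Cdc45, which joins the ring at activated origins, was at 0.950 to 18.8 CPM with Ngn3 (median 3.06) and at 3.16 to 90.2 CPM without (median 16.3). The highest samples with Ngn3 were replicate 2 with Ngn3 and Pdx1, at 18.8 CPM in the 6SA and 12.8 CPM in the WT cultures, and the lowest without was 6SA replicate 3 with MafA. The log2 fold change was -2.54 (standard error 0.41, edgeR adjusted p = 3.2e-05), 5.81-fold lower, and 13 of 14 pairs were lower. Mcm10 fell by 1.95, and the GINS subunits divided into a pair that fell, Gins1 by 1.19 and Gins2 by 2.08, and a pair that did not pass. These were Gins3 at -0.62 (edgeR adjusted p = 0.345) and Gins4 at -0.46 (edgeR adjusted p = 0.107). The subunits form a complex in equal numbers, and their transcript levels differed widely. Per kilobase of exon, Gins4 had the highest level of the whole list in both groups, at 50.5 ± 15.0 CPM without Ngn3 (SD, n = 15) and 36.7 ± 12.7 CPM with it (SD, n = 17), against 2.74 ± 2.07 and 1.63 ± 0.91 CPM for Gins3.

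The next role held the clamp Pcna, the 5 clamp loader subunits and the 3 subunits of RPA, which coats single-stranded DNA. Of these 9 genes 8 were lower, with a median log2 fold change of -0.72. The median of the whole list was -1.44, and the difference between roles was not tested. Rpa2 was at 5.22 to 25.3 CPM with Ngn3 (median 15.0) and at 15.1 to 84.4 CPM without (median 31.6). All 14 pairs were lower, the highest values without Ngn3 were in replicate 2, and the ranges overlapped between 15.1 and 25.3 CPM. Rpa2 changed by -1.46 on the log2 scale (standard error 0.26, edgeR adjusted p = 0.000114), 2.74-fold lower. Pcna was at 12.2 to 64.7 CPM with Ngn3 and 36.4 to 157 CPM without, and fell by 1.21. The clamp loader subunits fell by 0.46 for both Rfc1 and Rfc2, 0.72 for Rfc3, 1.22 for Rfc4 and 1.34 for Rfc5, though all belong to the same pentamer. Rpa1 fell by 0.72, and Rpa3, the smallest RPA subunit, was at -0.52 and did not pass (edgeR adjusted p = 0.314).

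All 9 polymerase and primase genes were lower, with a median log2 fold change of -1.25. Pole2, the B subunit of polymerase epsilon, was at 0.608 to 17.2 CPM with Ngn3 (median 6.88) and at 5.54 to 37.4 CPM without (median 15.3). Its lowest values were with the 3 factors, at 0.608 to 5.02 CPM in all 5 samples, below every sample without Ngn3, and WT replicate 2 with Ngn3 and MafA was the highest with Ngn3. The log2 fold change was -1.93 (standard error 0.33, edgeR adjusted p = 6.2e-05), 3.82-fold lower, with 13 of 14 pairs lower. The catalytic subunit Pole fell by 2.50, more than the catalytic subunit of polymerase delta, Pold1, which fell by 1.16. Its partners Pold2 and Pold3 fell by 0.88 and 0.77. Polymerase alpha fell by 1.73 for the catalytic Pola1 and 1.25 for Pola2, and the primase subunits by 1.81 for Prim1 and 1.02 for Prim2.

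Of the 2 genes of lagging strand maturation, both negative, 1 passed the test. Fen1, the nuclease that trims flaps between Okazaki fragments, was at 0.104 to 1.22 CPM with Ngn3 (median 0.465) and at 0.264 to 3.98 CPM without (median 1.79). It fell by 1.79 on the log2 scale (standard error 0.46, edgeR adjusted p = 0.00462), but many of its values lay near the level of 3 counts. Its exons overlap those of Tmem258, which was at a median of 76.5 CPM with Ngn3 and 78.3 CPM without, and how reads in both genes were counted was not tested. Lig1, the ligase that seals the fragments, did not pass (log2 fold change -0.60, edgeR adjusted p = 0.315) and is described below.

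All 4 genes of nucleotide supply were lower, with a median log2 fold change of -1.75. Tyms, thymidylate synthase, was at 7.81 to 41.1 CPM with Ngn3 (median 15.8) and at 18.2 to 117 CPM without (median 38.4), and 14 of 14 pairs were lower. Tyms changed by -1.44 on the log2 scale (standard error 0.25, edgeR adjusted p = 0.0001), 2.71-fold lower. Rrm2, the regulated subunit of ribonucleotide reductase, had the largest fold change of the list at -3.44 (standard error 0.79, edgeR adjusted p = 0.00187). It was at 0 to 55.3 CPM with Ngn3 (median 1.64), where 3 of the 5 samples with the 3 factors had no counts, and at 0.264 to 169 CPM without (median 32.9). The constant subunit Rrm1 fell by 1.63 and Tk1, thymidine kinase, by 1.87.

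Of the 4 genes of chromatin and methylation, 3 were lower, with a median log2 fold change of -1.68. Chaf1b, a subunit of the chromatin assembly factor that deposits histones behind the fork, was at 6.50 to 40.7 CPM with Ngn3 (median 14.0) and at 11.3 to 138 CPM without (median 43.1). Apart from replicate 2 with Ngn3 and Pdx1, at 27.0 CPM in the WT and 40.7 CPM in the 6SA cultures, samples with Ngn3 were at up to 19.7 CPM, and the only sample without Ngn3 in that range was 6SA replicate 3 with MafA. Chaf1b changed by -1.89 on the log2 scale (standard error 0.26, edgeR adjusted p = 4.7e-06), 3.70-fold lower. Its partner Chaf1a, at -1.47, just missed the threshold (edgeR adjusted p = 0.0553). Uhrf1, which recognises hemimethylated DNA, fell by 2.98, and Dnmt1, the methyltransferase it recruits, by 0.88.

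Neither E2F gene was called with Ngn3. E2f1 was at 0.151 to 21.9 CPM with Ngn3 (median 6.78) and at 0 to 24.6 CPM without (median 7.03). Its log2 fold change was -0.0041 with a standard error of 0.52 (edgeR adjusted p = 1), and its sign changed with the scaling. E2f2 was at 0 to 9.06 CPM with Ngn3 (median 1.57) and at 0 to 4.70 CPM without (median 0.714), and it differed by 0.91 on the log2 scale with a standard error of 0.64 (edgeR adjusted p = 0.402). Both were lower with Ngn3 in 4 of 14 same-numbered pairs, fewer than any other gene of the list. The highest E2f2 values were in 6SA replicate 1 and WT replicate 2 with Ngn3 and Pdx1, at 9.06 and 7.08 CPM.

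**Figure D3:**
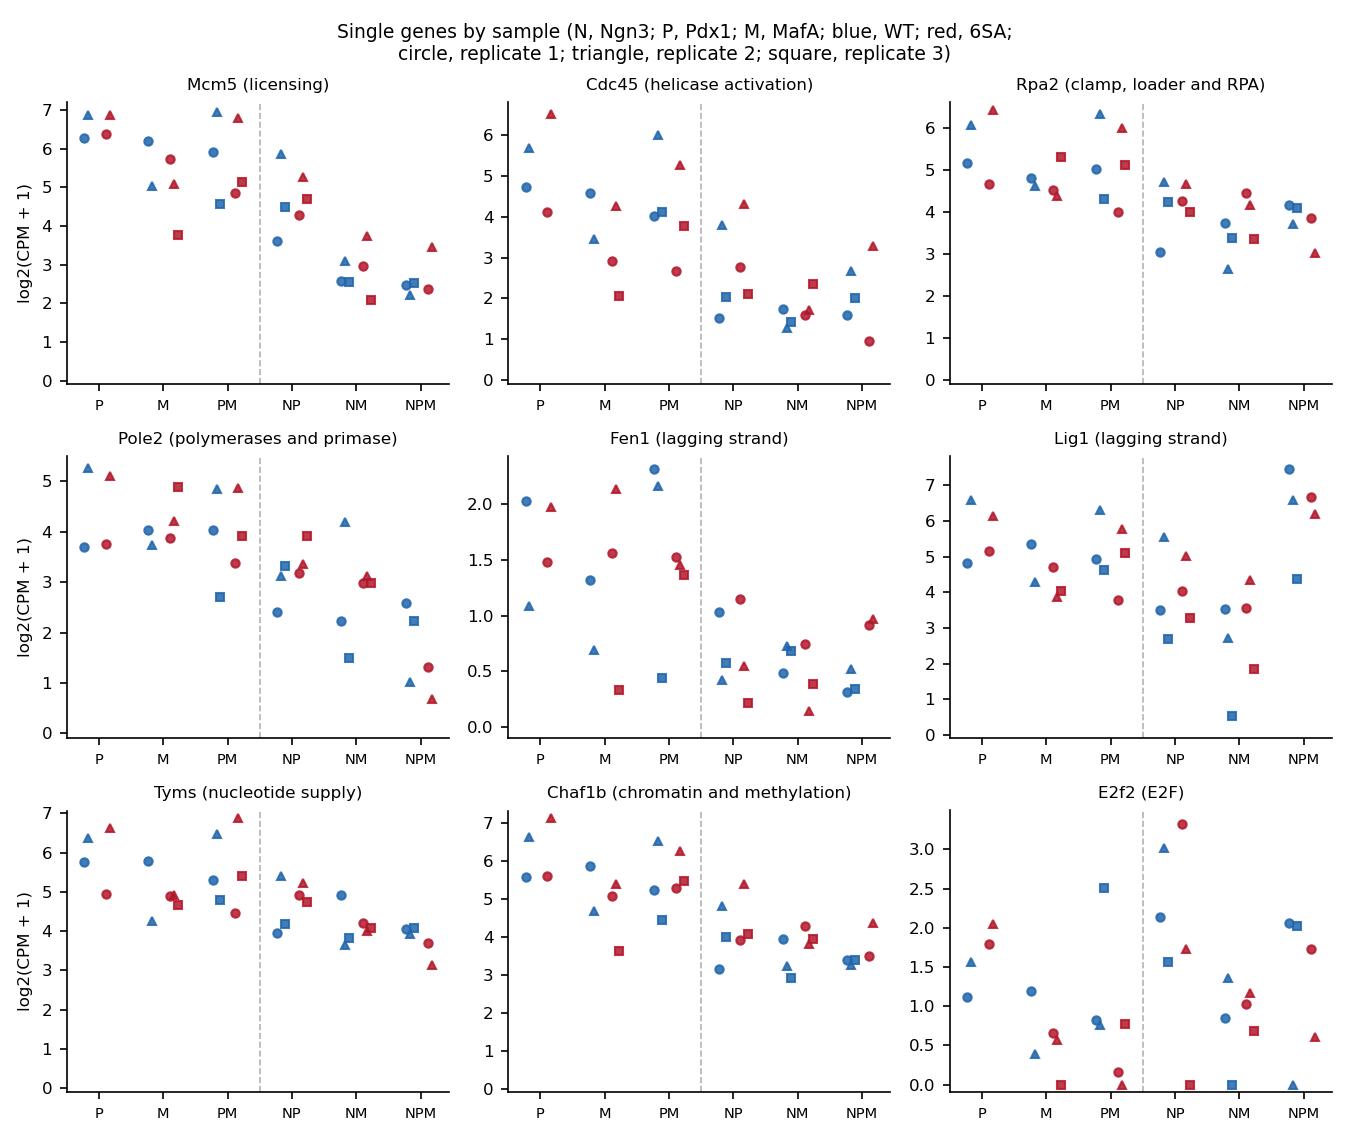
Levels of the gene with the lowest adjusted p in each role, and of Lig1, in every sample on the log2(CPM + 1) scale, by combination of factors, with colour for the culture and shape for the replicate. Mcm5, Cdc45, Rpa2, Pole2, Fen1, Tyms and Chaf1b sit lower with Ngn3, with a log2 fold change from -2.64 for Mcm5 to -1.44 for Tyms, Lig1 is highest with the 3 factors, and E2f2 overlaps throughout.

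The genes did not all have the same abundance. Per kilobase of exon and without Ngn3, the highest means were those of Gins4 at 50.5, Pcna at 34.1, Gmnn at 31.9, Orc6 at 31.7 and Pold2 at 29.5 CPM, with SDs of 15.0, 15.9, 24.4, 14.6 and 8.23 CPM (n = 15), so that the last 4 did not differ beyond their spread. With Ngn3 the order began with Gins4 at 36.7, Orc6 at 24.4, Pold2 at 16.1, Pcna at 15.8 and Rpa3 at 13.7 CPM, with SDs of 12.7, 7.81, 4.69, 6.88 and 7.63 CPM (n = 17), and the last 3 did not differ beyond their spread. Gmnn dropped from place 3 to 13 and Mcm5 from 14 to 25, while Orc6 went from place 4 to 2. Lig1 went from place 28 to 12 through cells with the 3 factors, at 19.5 to 175 CPM against 0.454 to 45.5 CPM in the other 12 samples with Ngn3, and its fitted change with Ngn3 was -0.60. At the bottom were E2f2, Fen1, Chaf1a, Orc1 and Mcm10, all under 2 CPM per kilobase in both groups.

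As a description of how the genes varied together, deviations of log2(CPM + 1) from the condition means were correlated over the 32 samples, which share library and depth. The median correlation of 2 members was 0.41 over 1081 pairs, and 90.2% of pairs were above 0. Pairs of genes outside the list were not computed, so these values are not shown to be particular to it. Chaf1b, Mcm5 and Tyms followed the mean of the other members most closely, at 0.91, 0.88 and 0.86, and 33 genes were over 0.5. E2f2 at 0.03, Pold3 at 0.12, Rpa3 at 0.19 and Gins4 at 0.25 were the lowest, while E2f1 was at 0.63.

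In each kind of culture 45 of the 47 log2 fold changes with Ngn3 were negative, and only part of them passed the test. In WT cultures 25 of the 47 were lower and 0 higher (4.36% of all genes were called lower and 4.23% higher), with a median log2 fold change of -1.52, and in 6SA cultures 19 were lower and 0 higher (5.98% and 8.12%), with a median of -1.40. Of these, 16 were shared, which is 64% of those called in WT and 84.2% of those called in 6SA cultures. They were Mcm2 to Mcm6, Gmnn, Cdc45, Pcna, Rfc5, Rpa2, Pola1, Pold2, Pole2, Rrm1, Tyms and Chaf1b. Under a replicate block the counts were 29 in WT and 30 in 6SA cultures. Mcm5 fell by 2.95 in WT and by 2.34 in 6SA cultures. The difference of the Ngn3 effect between the cultures passed for 0 of the 47 (0% of all genes; 0 also with DESeq2, and 0 members with an unadjusted edgeR p under 0.05), with a median difference (6SA minus WT) of 0.16 and standard errors of 0.26 to 1.50. The largest was that of Rrm2, at 2.74 (standard error 1.50, edgeR adjusted p = 1). Without replicate 2 the counts were 9 in WT and 4 in 6SA cultures. The WT count was 11 without WT replicate 1 with MafA, 13 without WT replicate 2 with Pdx1 and 16 without WT replicate 2 with Pdx1 and MafA, and the 6SA count was 7 without 6SA replicate 2 with Pdx1.

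Phospho-mutant and wild-type Ngn3 were compared directly over the 3 combinations. None of the 47 genes passed (0% of all genes, and 0 of the 47 with DESeq2), and 1 had an unadjusted edgeR p under 0.05, Rrm2. The median log2 difference of phospho-mutant from wild type was 0.13 on the log2 scale, with a median standard error of 0.44. For Rrm2, 0 to 55.3 CPM with wild-type and 0 to 46.1 CPM with phospho-mutant Ngn3, it was 2.32 (standard error 1.10, edgeR adjusted p = 0.822). Between the cultures without Ngn3 the median was -0.08, and 0 genes passed (0% of all genes, 0 with DESeq2), with 1 member under an unadjusted edgeR p of 0.05.

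Without Ngn3, the mean sum was 3013 CPM with Pdx1, 1604 CPM with MafA and 2192 CPM with both, and the ranges overlapped. The sum was 2093 to 4096 CPM in the 4 samples with Pdx1, 1105 to 2205 CPM in the 5 with MafA and 1228 to 3737 CPM in the 6 with both. Of the 47 genes 41 had their highest condition mean with Pdx1 alone, 16 in WT and 25 in 6SA cultures, and the share over all genes was not computed. In WT replicates 1 and 2 the sum was 2093 and 3761 CPM with Pdx1 and 1907 and 3737 CPM with both. In 6SA replicates 1 and 2 it was 2102 and 4096 CPM against 1355 and 3335 CPM. All 47 were higher with Pdx1 than with MafA, by a median of 1.01 on the log2 scale, but 0 passed the test (0% of all genes; 0 with DESeq2 and 11 members at an unadjusted edgeR p under 0.05), with the lowest unadjusted p for Chaf1b (1.26, standard error 0.49, edgeR adjusted p = 1). Pdx1 with MafA against either alone called 0 of the 47 (0% of all genes, 0 of the 47 with DESeq2 and 0 at an unadjusted edgeR p under 0.05), with log2 fold changes from -0.77 to 0.67. Cells with Pdx1 alone, and WT cultures with MafA, had no samples at passage 5.

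The Ngn3 effect was then taken in each combination. Added to Pdx1, Ngn3 lowered 2 of the 47 genes (0.171% of all genes were called lower and 1.32% higher), Mcm2 by 1.42 and Chaf1b by 2.06 on the log2 scale, although 46 were negative, 35 had an unadjusted p under 0.05 and the median was -1.42. Added to MafA it lowered 5 (2.17% of all genes were called lower and 2.5% higher), with a median of -0.98. These were Mcm5 by 2.65, Pole by 3.77, Pola1 by 2.02, Cdc45 by 2.45 and Chaf1b by 1.49. Added to Pdx1 and MafA it lowered 27 (8.4% of all genes were called lower and 9.42% higher), with a median of -1.81, 3.50-fold lower, led by Mcm2 at -2.09 and Mcm5 at -3.50. Rrm2 had the largest change there, at -5.61. Samples with Ngn3 and Pdx1 included passage 5 and those with Pdx1 alone did not, and this model had no passage term. Without replicate 3, which is passage 5, the counts were 1 for Pdx1, 2 for MafA and 26 for both. Counts in single combinations rested on few samples. For Pdx1 the count was 0 without 6SA replicate 2 with Pdx1, 1 without 6SA replicate 1 or WT replicate 1 with Ngn3 and Pdx1 or either WT replicate with Pdx1, 4 without 6SA replicate 1 with Pdx1 and MafA and 5 without WT replicate 2 with Ngn3 and Pdx1. For MafA it was 2 without either WT replicate with MafA, 6SA replicate 2 with MafA or 6SA replicate 1 with Ngn3 and MafA, and 3 without 6SA replicate 2 or any WT replicate with Ngn3 and MafA. For both factors it was 13 without 6SA replicate 2 with the 3 factors and 17 without WT replicate 2 with Pdx1 and MafA. Without replicate 2 altogether they were 0, 1 and 3, and under a replicate block 9, 9 and 32.

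**Figure D4:**
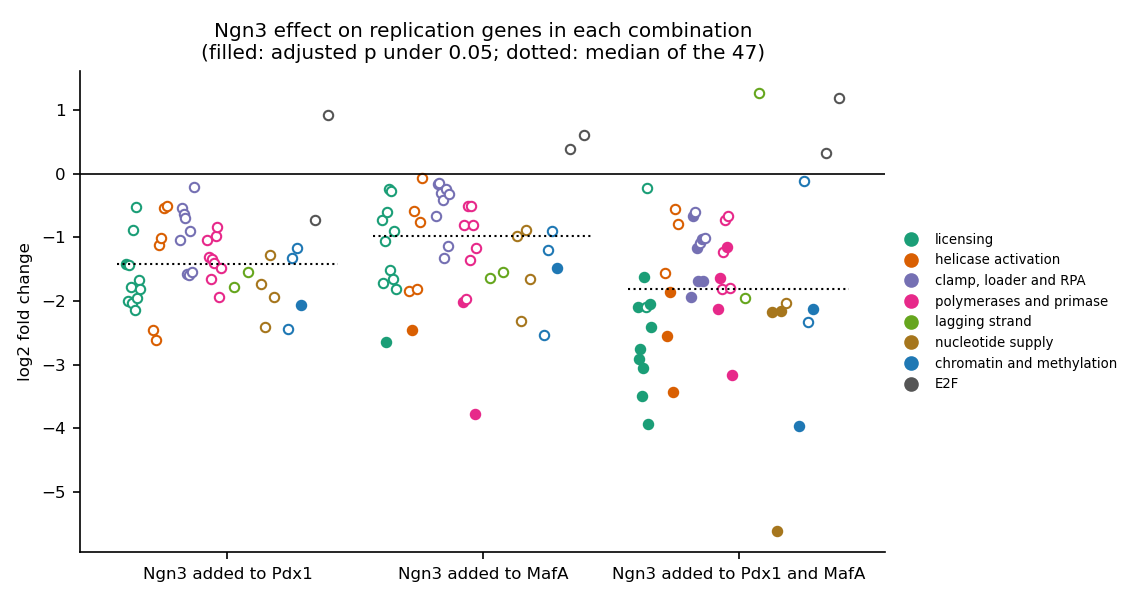
Log2 fold change of each of the 47 genes when Ngn3 was added to Pdx1, to MafA or to both, coloured by role, with filled points for an adjusted p under 0.05 and dotted lines at the medians of -1.42, -0.98 and -1.81. Filled points number 2, 5 and 27, all below 0, and the highest points are Lig1 at 1.27 and E2f2 at 1.19 with both factors.

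These combination effects were tested against each other. Between Pdx1 and MafA the effect of Ngn3 differed for 0 of the 47 genes (0% of all genes; 0 with DESeq2 and 0 members at an unadjusted edgeR p under 0.05), with standard errors of 0.32 to 1.84. Between both factors and a single factor it differed for 0 of the 47 (0.158% of all genes), with 10 members at an unadjusted edgeR p under 0.05 and 1 called by DESeq2, and the median difference was -0.50. The lowest unadjusted p was that of Lig1, at a difference of 2.81 (standard error 0.79, edgeR adjusted p = 0.158). Without replicate 1, or without WT replicate 3 with the 3 factors, 1 gene was called. A smaller number of calls with 1 factor was therefore not shown to be a smaller effect.

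With Ngn3 present, the summed level was 781 to 1802 CPM with Pdx1, 877 to 1018 CPM with MafA and 739 to 916 CPM with both. The 3 factors had the lowest condition mean for 28 of the 47 genes, 16 in WT and 12 in 6SA cultures, and the share over all genes was not computed. Against Ngn3 with a single factor, 2 genes were lower with the 3 factors (2.17% of all genes were called lower) and 1 was higher (2.48% were called higher), with a median log2 fold change of -0.41. Both counts were close to the shares of all genes. Mcm2 was at 14.0 to 28.7 CPM in the 5 samples with the 3 factors and at 42.9 to 59.2 CPM in the 12 with Ngn3 and 1 factor. The groups did not overlap, and the log2 fold change was -1.14 (standard error 0.27, edgeR adjusted p = 0.0144). Pole2 fell by 2.08 (standard error 0.55, edgeR adjusted p = 0.0284), from 1.81 to 17.2 CPM with 1 factor to 0.608 to 5.02 CPM with the 3 factors. Without replicate 2 neither passed (edgeR adjusted p = 0.494 and 0.59), and without replicate 1 the comparison called 10 genes, without replicate 3 it called 7, and under a replicate block 7. It called 6 without WT replicate 1 with Ngn3 and Pdx1 or 6SA replicate 3 with MafA, and 5 without WT replicate 3 with the 3 factors or WT replicate 2 or 3 with Pdx1 and MafA. Ngn3 with Pdx1 against Ngn3 with MafA called 0 of the 47 (0.133% of all genes, 3 members by DESeq2, 2 under a replicate block, and 9 at an unadjusted edgeR p under 0.05), with a median of 0.66. The lowest unadjusted p there was that of Mcm5, at 2.10 (standard error 0.48, edgeR adjusted p = 0.0795), and 1 gene was called without WT replicate 1 with Ngn3 and Pdx1 and 4 without replicate 1 altogether.

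Lig1 was the single member called higher in any comparison of the main test. In cells with the 3 factors it was at 175, 95.4 and 19.5 CPM in WT replicates 1 to 3 and at 101 and 72.1 CPM in 6SA replicates 1 and 2. With Ngn3 and Pdx1 it was at 5.41 to 45.5 CPM (median 12.9), with Ngn3 and MafA at 0.454 to 19.4 CPM (median 8.09), and with Pdx1 and MafA but no Ngn3 at 12.7 to 78.8 CPM (median 31.3). Of the 5 samples 4 exceeded all 12 with Ngn3 and 1 factor, and WT replicate 3, at passage 5, did not. The log2 fold change against Ngn3 with 1 factor was 2.89 (standard error 0.53, edgeR adjusted p = 0.00199), 7.43-fold higher. It passed in 44 of 45 alternatives, with log2 fold changes of 2.50 to 3.67, and missed the threshold without replicate 2 (edgeR adjusted p = 0.0504). Against Pdx1 with MafA the change was 1.27 (standard error 0.64, edgeR adjusted p = 0.175), so that Lig1 was not called there. By pool, the 9 libraries kept from cells with the 3 factors had a Lig1 level of 21.4 to 377 per 1000000 gene counts, of which all but that of WT replicate 3 were at 76.9 or more, and the 3 left out for low depth had 213, 82.8 and 41.6, from 133, 20 and 17 counts.

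Lig1 (chromosome 7, 13277283 to 13311433, plus strand) shares exon sequence with Zswim9. Zswim9 was at 7.05 to 18.4 CPM with the 3 factors (median 13.9) and at 1.43 to 19.8 CPM with Ngn3 and 1 factor (median 5.61), ranges that overlapped, and it had fewer counts than Lig1 in all 9 kept libraries with the 3 factors.

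**Figure D5:**
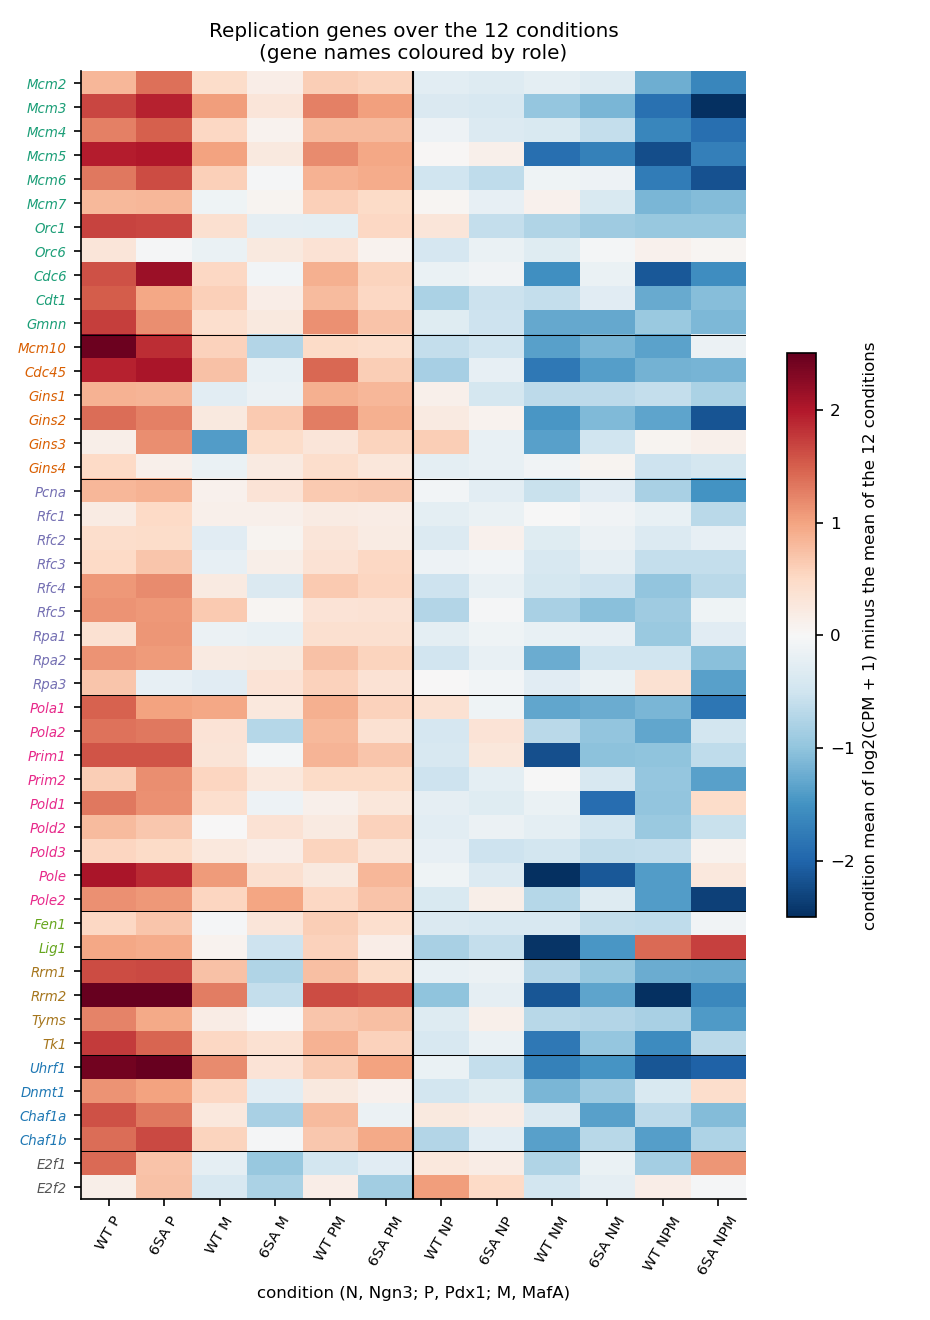
Condition means of log2(CPM + 1) for the 47 genes, each shown as the difference from its mean over the 12 conditions, with genes in rows by role and conditions in columns, those without Ngn3 left of the line. Most rows go from red on the left to blue on the right, with Pdx1 alone reddest and the 3 factors bluest, and Lig1 is red again with the 3 factors.

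Passage and replicate 3 are the same samples and cannot be told apart. With a passage term in the model, 8 of the 47 genes were lower at passage 5 and 0 higher (5.07% of all genes were called lower and 3.15% higher), with a median log2 fold change of -0.46 against -0.26 over all genes. They were E2f1 by 2.63, Orc1 by 2.41, Chaf1a by 2.21, Pold1 by 1.72, Lig1 by 1.59, Rrm1 by 1.29, Pola2 by 1.10 and Dnmt1 by 1.03. With passage 5, 5 of 20 mitosis genes were also called lower (median -1.77), as were 6 of 10 endocrine markers (median -2.09), and their part in the change of the replication genes was not tested. E2f1 passed under all 11 alternatives, with edgeR adjusted p-values up to 0.0351. In the 8 samples at passage 5 it was at 0 to 6.36 CPM, and in the 24 at passage 2 at 1.76 to 24.6 CPM. Without replicate 1, 13 genes were lower. Without the passage 5 samples, 38 of the 47 genes were called for Ngn3.

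Pools of the same culture were compared as a measure of the sampling of cells. In 17 samples with 2 or 3 pools, the highest summed level was 1.02 to 2.22 times the lowest (median 1.20). The largest ratio was in 6SA replicate 2 with Ngn3 and Pdx1, where the pools had 1203 and 2670 counts of the 47 genes per 1000000 gene counts.

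A list of 40 other genes of DNA replication gave the same direction. Of these 23 were lower and 0 higher (10.5% and 11.1% of all genes), with a median log2 fold change of -0.80. The lowest adjusted p-values were those of Nasp, a histone chaperone, Dck, deoxycytidine kinase, and Asf1b, another histone chaperone, which fell by 0.98, 1.28 and 2.59. The largest change was that of Clspn, the checkpoint mediator claspin, which fell by 3.95. Of 31 regulators of entry into S phase 13 were lower and 4 higher, the latter a share near the 11.1% of all genes called higher. Mycn fell by 2.07, Cdk2, the kinase of the G1 to S transition, by 1.34 and Cdk6 by 1.16. The 4 that rose were the kinase inhibitors Cdkn1a by 1.07, Cdkn1c by 2.35 and Cdkn2d by 1.31 and the retinoblastoma gene Rb1 by 1.07. Other genes that restrain the cycle did not rise. Rbl1, a relative of Rb1, fell by 1.92, and the log2 fold changes of the kinase inhibitors Cdkn2c, Cdkn2b and Cdkn1b, at -1.25, -0.26 and -0.16, and of Rbl2 and Cdkn2a, at 0.30 and 0.50, did not pass. Cdkn1a was at 542 to 1697 CPM with Ngn3 (median 1072) and at 361 to 1016 CPM without (median 466). Of the other E2F genes, E2f8, a repressor, fell by 4.34, and E2f3, E2f4, E2f5, E2f6 and E2f7 did not pass. All 20 genes of mitosis were lower, with a median log2 fold change of -3.38, 10.4-fold, against -1.44 for the replication genes. Ccnb1, cyclin B1, fell by 4.31, Cdc20, an activator of the anaphase-promoting complex, fell by 3.76 and the centromeric histone Cenpa fell by 3.38. The members of the replication and mitosis lists share samples and libraries, and the difference between their medians was not tested.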

How the data were processed

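The authors aligned single-end reads of 50 bases to mm10 with GSNAP and counted them per Ensembl release 81 gene with HTSeq 0.5.3p3. The deposited table holds raw counts per gene, and rows that name no gene took 33.9 to 67.3% of each library. The kit does not mark strand, so overlapping genes cannot be told apart, and how multi-mapping reads were treated is not given in the sources used here. Exons of 15 of the replication genes overlap those of another gene, and Pcna and Tyms have named pseudogenes. Of 61 libraries 58 had over 1000000 gene counts, under 25% spike-in and over 10000 genes detected. Technical repeats were summed to 32 samples. Genes detected in 5 libraries or more with a variance of log2(CPM + 1) above 0.001 were tested (24004).

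Levels are CPM over TMM-scaled totals. A model with the 12 conditions was fitted with edgeR 4.0.16 in R 4.3.3 (TMM, trended dispersion, quasi-likelihood test), with Benjamini-Hochberg adjustment over all 24004 genes and a threshold of 0.05. DESeq2 1.42.0 was an alternative. The labels number replicates without naming animals, so p-values measure the spread between these samples. Levels are given by sample for the gene of each role with the lowest adjusted p. Members and lists were chosen with earlier results of these data known. Limits of 3 counts cover counting error only.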

Additional observations from a re-analysis of the deposited data

How the results depend on the processing

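Across 46 fits 44 of the 47 genes kept a negative Ngn3 effect, and 16 passed in all of them: Mcm2 to Mcm6, Gmnn, Cdc45, Rfc5, Pola1, Pole, Pole2, Rrm1, Rrm2, Tyms, Uhrf1 and Chaf1b. The count of 39 over both cultures and the combinations was 29 with plain totals, which moved the median of all genes by 0.20 on the log2 scale, 36 with spike-in sizes, which moved it by -0.18, and 17 without replicate 2. The cause of the changes below was not tested.

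With spike-in library sizes 12 genes were called in 6SA cultures, 0 for Ngn3 added to Pdx1, 2 to MafA, 12 to both, 1 for the 3 factors against Ngn3 with 1 factor and 2 for passage, and plain totals gave 2 for MafA. With no gene filter the counts were 21 for Pdx1, 15 for MafA, 1 for the difference between cultures, 4 for both factors against 1, 1 for phospho-mutant against wild-type Ngn3, 11 for the 3 factors, 6 for Ngn3 with Pdx1 against MafA, 1 for Pdx1 against MafA and 15 for passage. DESeq2 gave 8 for Pdx1, 1 for both factors against 1, 7 for the 3 factors, 3 for Ngn3 with Pdx1 against MafA and 14 for passage. All libraries gave 5 for the 3 factors, and the first technical repeat gave 1 for Pdx1 and 1 for Ngn3 with Pdx1 against MafA. The edgeR fit without its legacy setting, chosen after seeing the data, gave 7 for Pdx1, 6 for the 3 factors and 1 for Ngn3 with Pdx1 against MafA.

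Leaving out a sample or a replicate number gave 17 to 40 for Ngn3 over both cultures, 9 to 27 in WT and 4 to 24 in 6SA cultures, 0 to 5 for Pdx1, 1 to 6 for MafA, 3 to 28 for both, 0 to 1 for both factors against 1, 0 to 10 for the 3 factors, 0 to 4 for Ngn3 with Pdx1 against MafA and 8 to 13 for passage. The moved counts were 9 to 16 in WT cultures, 4 to 7 in 6SA cultures, 1 to 3 for MafA, 3 to 17 for both and 1 to 4 for Ngn3 with Pdx1 against MafA. E2f1 turned to a positive log2 fold change of 0.093 with RLE factors, 0.095 with DESeq2, 0.21 with plain totals, 0.016 with filterByExpr, 0.025 with no gene filter and 0.15 with the first technical repeat, and was at -0.34 to 0.22 in leave-outs. Orc6 was at -0.73 to 0.058 in leave-outs and was positive without replicate 2.

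With a replicate block the counts were 41 for Ngn3 over both cultures, 30 in 6SA cultures, 9 for Pdx1, 9 for MafA, 7 for the 3 factors and 2 for Ngn3 with Pdx1 against MafA, and E2f1 was at 0.39. Deviations of same-numbered samples with and without Ngn3 correlated at -0.39 to 0.75 over 14 pairs, 12 of them over 0.1 and 2, both of 6SA cells with the 3 factors, at -0.39 and -0.31. Of all 160 combinations of same-numbered samples from different conditions, WT and 6SA cultures together, 137 correlated over 0.1. The labels do not say whether a number marks the same culture, so the fit without the block was kept and both are given.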
